A study of Homo sapiens with 6 samples.

Results

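Mucins are large glycoproteins whose serine- and threonine-rich stretches carry dense chains of O-linked sugars. Membrane-bound mucins such as MUC1, MUC4, MUC13, MUC15 and MUC16 stand on the apical surface of epithelial cells, and gel-forming mucins such as MUC5B are secreted. In the breast, MUC1 lines the apical membrane of luminal cells and is carried on milk fat globules, and many carcinomas lose its restriction to that face of the cell. The 7 mucin genes MUC1, MUC4, MUC5B, MUC13, MUC15, MUC16 and MUC20 were chosen by name, as the non-control probe sets to which the array annotation gives these symbols. Earlier results of these data were known when the 7 were chosen. Each had 1 probe set, so they made up 7 of 28026 probe sets tested and 7 of 20265 genes named on the array.

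The arrays came from MDA-468.shp53, an established human breast cancer line, derived from MDA-MB-468, that carries a short hairpin RNA. Cells were grown for 8 days in 3-dimensional culture, a format in which mammary cells can form hollow acini, without doxycycline (-DOX) or with it (+DOX). Both groups carried the hairpin, and doxycycline is the drug that switches on such hairpins. Each of 3 independent experiments gave 1 array per group. Cells that had the drug but no hairpin were not analysed here, so hairpin and drug cannot be told apart in any difference, and a single cell line stands for the tumour. The labels do not say which promoter drives the hairpin.

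The 5 epithelial markers EPCAM, CDH1, KRT8, KRT18 and KRT19 read 11.04 to 13.35 on the log2 scale without and 10.82 to 13.12 with doxycycline. Of these, KRT8 fell (log2 change -0.63, adjusted p = 0.00498), and its part in the mucin changes was not tested. KRT19 changed by -0.37 (limma adjusted p = 0.109) and did not pass, and the 5 changes ran from -0.63 to -0.03. Summed on a log2 scale, the epithelial level lay between 14.76 and 14.92 without and 14.44 and 14.63 with doxycycline. These groups do not overlap, unlike those of the fibroblast, endothelial and leukocyte sums, and the part of that difference was not tested. Of 14 fibroblast, endothelial and leukocyte markers, limma called 0, with 2 at an unadjusted p under 0.05, and the methods' paired t-test called 0 after adjustment, with 1 unadjusted. The summed fibroblast level, on a log2 scale, lay between 9.51 and 9.79 without and 9.54 and 9.67 with doxycycline. The endothelial sum lay between 8.11 and 8.25 and between 8.09 and 8.19, and the leukocyte sum between 9.26 and 9.48 and between 9.24 and 9.56. Among the defining markers, PTPRC (4.08 to 4.33) and LUM (4.02 to 4.22) were under the lower quartile of the array, 5.79.

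Of the 7 mucin genes, MUC1 and MUC5B fell with doxycycline, MUC15 rose, and MUC4, MUC13, MUC16 and MUC20 did not pass the test. A gene passed at a limma adjusted p under 0.05 over all 28026 probe sets, with the experiment as a term. Among all probe sets tested 12.8% passed, 6.14% upward and 6.63% downward. Because the 7 were chosen with earlier results known, their share beside these values is a description and no test. The median log2 change was -0.04 over the 7 mucin genes and -0.01 over all probe sets. Values are log2 signals from the Robust Multichip Average (RMA). They rank arrays for 1 probe set and do not compare amounts between genes. The number of arrays limits how precisely a change is known. Less RNA per cell and fewer cells that express a gene cannot be told apart in such bulk samples.

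The count of passing mucin genes moved with the model and with the experiments kept. It was 1 of 7 without the experiment term, where 8.6% of all probe sets passed, and 1 of 7 without experiment 2 (6.81%) or without experiment 3 (4.83%). In each of these the gene was MUC1. It was 3 of 7 without experiment 1 (10.2%), with quantile normalization (12.7%), with equal array medians (12.4%), with the trended and robust variance (14.4%) and among probe sets of 1 gene symbol (19.0%). Once the dimmer probe sets were left out, the 3 that remained all passed, at 29.0% of the rest. After adjustment the methods' paired t-test passed 0 of the 7 and 0.0% of all.

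**Figure D1:**
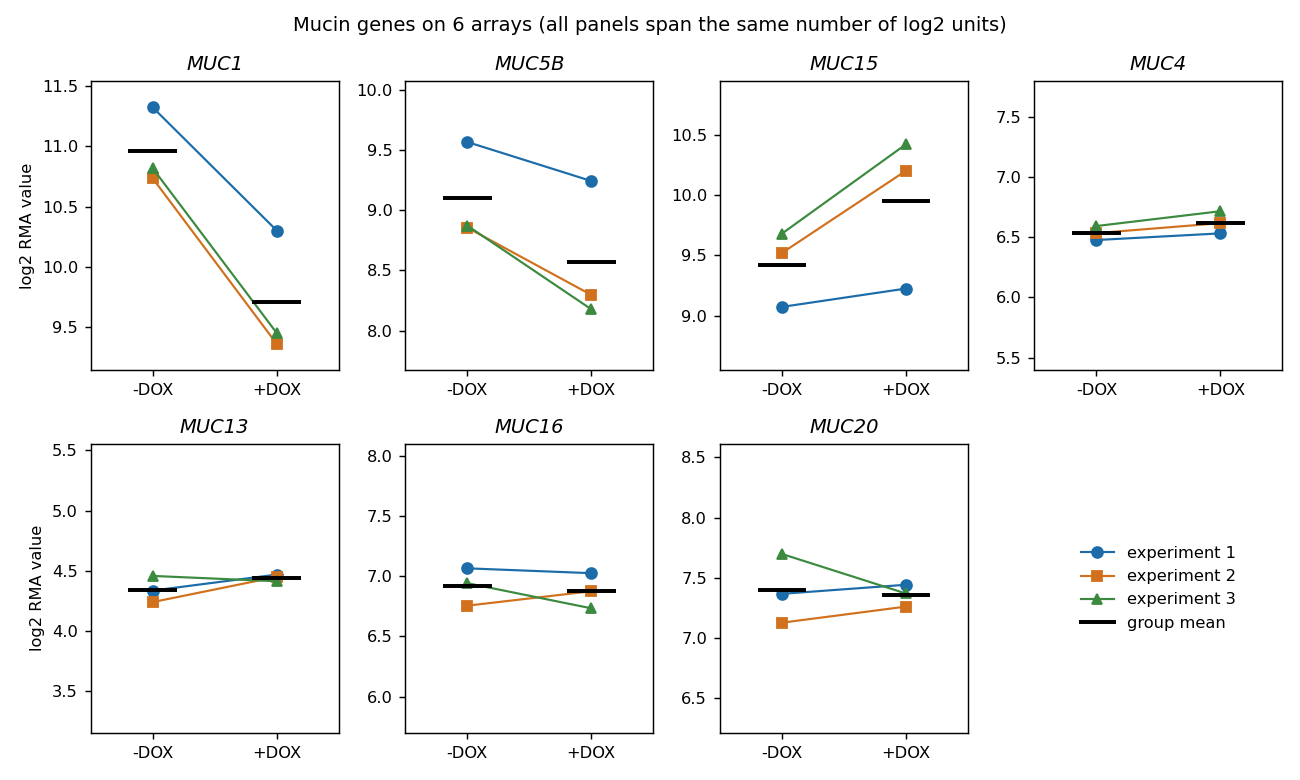
Log2 RMA value (vertical axis) of each mucin gene without and with doxycycline (horizontal axis). Points are arrays, lines join the arrays of an experiment, black bars are group means, and every panel spans the same number of log2 units. MUC1 and MUC5B drop and MUC15 climbs along all 3 lines, while the lines of MUC13, MUC16 and MUC20 run in both directions.

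MUC1, whose shed part is measured in blood as a breast tumour antigen, had the largest change of the 7. Its log2 values were 11.32, 10.74 and 10.82 without doxycycline and 10.30, 9.36 and 9.45 with it, in experiments 1, 2 and 3. Every treated array was below every untreated one. MUC1 was the only mucin gene of the 7 whose groups did not overlap, against 24.9% of all probe sets. The fall was 2.39-fold, with a 95% interval of 2.03 to 2.81 (log2 -1.25 with SE 0.10, n = 3 each, limma adjusted p = 0.000802). Within experiments the log2 change was -1.02, -1.37 and -1.37. In both groups the array of experiment 1 was the highest, by an amount that was not tested.

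The MUC1 call held in each of 9 other limma settings, at adjusted p from 3.6e-05 to 0.0276. In the methods' paired t-test MUC1 had an unadjusted p of 0.00847 and an adjusted p of 0.238, in a design where that test called 0 probe sets after adjustment.

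The MUC1 probe set held 18 probes and is annotated on the minus strand at chr1:153388480-153429330 of NCBI build 36, the build of the array annotation. That range is 40.9 kb long, whereas the RefSeq gene spans 7.1 kb. Inside it on the same strand lies a probe set for KRTCAP2, a subunit of the oligosaccharyltransferase that attaches N-linked sugars. KRTCAP2 changed by 0.10 on the log2 scale (SE 0.096, adjusted p = 0.669) and did not pass. The probe set for TRIM46, on the opposite strand, changed by -0.13 (SE 0.11, adjusted p = 0.606) and did not pass either.

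The stretch before the start of MUC1 is shown as the mucin gene with the largest change, beside that of MUC4, which did not pass. RefSeq promoters were at hand for 4 of the 7 genes, namely MUC1, MUC4, MUC13 and MUC16. The 250 bases before the start are printed 5′ to 3′ on the gene's own strand, from assembly GRCh38.p14, at chr1:155192916-155193165 (minus strand) for MUC1 and chr3:195811930-195812179 (minus strand) for MUC4. Capitals mark matches, on either strand, to the GC box GGGCGG, the TATA box TATAAA, the E-box variant CACCTG and the palindrome TTCNNNGAA of STAT factors.
MUC1: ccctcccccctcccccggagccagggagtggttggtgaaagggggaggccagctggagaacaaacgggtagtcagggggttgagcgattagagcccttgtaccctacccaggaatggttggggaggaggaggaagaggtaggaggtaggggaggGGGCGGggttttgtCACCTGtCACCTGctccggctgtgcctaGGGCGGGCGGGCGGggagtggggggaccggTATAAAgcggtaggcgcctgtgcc
MUC4: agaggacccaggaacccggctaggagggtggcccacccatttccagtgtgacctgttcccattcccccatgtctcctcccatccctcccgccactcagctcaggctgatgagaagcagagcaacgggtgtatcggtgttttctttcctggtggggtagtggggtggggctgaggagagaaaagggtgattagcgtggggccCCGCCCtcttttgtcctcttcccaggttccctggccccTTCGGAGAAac

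The MUC1 stretch held 4 GC box matches, 3 of which overlap each other, together with 1 TATA box 24 to 19 bases before the start and 2 E-box variants. MUC4 held 1 GC box match, on the other strand, and 1 STAT-type palindrome 11 to 3 bases before its start. Of 35116 RefSeq promoter stretches of this length, 42.64% held the GC box, 10.72% the TATA box, 17.49% the E-box variant and 6.57% the palindrome. MUC13 held none of the 4 motifs. MUC16 has 2 RefSeq starts, of which 1 stretch held 1 GC box match and the other 1 E-box variant. The second RefSeq start of MUC1 holds the same matches, with the TATA box 30 to 25 bases before it. The GC content was 66.0% for the printed MUC1 stretch, 60.4% for MUC4, 41.6% for MUC13 and 61.6% and 63.6% for MUC16, against a median of 58.0%. These matches describe letters in a window and say nothing about binding in these cells.

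MUC5B, a gel-forming mucin of saliva and airway mucus, also fell. It measured 9.56, 8.85 and 8.87 without doxycycline and 9.24, 8.30 and 8.18 with it. Within each experiment the treated array was the lower, but the groups overlap, because the treated array of experiment 1 was above the untreated arrays of experiments 2 and 3. The fall was 1.44-fold, with a 95% interval of 1.23 to 1.69 (log2 -0.53 with SE 0.098, n = 3 each, limma adjusted p = 0.0138). It was -0.32 in experiment 1, -0.56 in experiment 2 and -0.69 in experiment 3. With no experiment term MUC5B missed the threshold (adjusted p = 0.418), as it did without experiment 2 (0.0594) or experiment 3 (0.0832), within a range of 0.004 to 0.418 over the limma settings.

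The 59 probes of MUC5B lie on the plus strand at chr11:1169334-1239414 of build 36, a range of 70.1 kb against 39.1 kb for the RefSeq gene. MUC5AC, its neighbour among the gel-forming mucins of chromosome 11, had no probe set of its own among those tested, so signal from MUC5AC within that range cannot be told apart from MUC5B. The other gel-forming mucins of the cluster, MUC2 and MUC6, did not pass. MUC2 changed by -0.01 on the log2 scale (SE 0.094, adjusted p = 0.973) and MUC6 by 0.17 (SE 0.11, adjusted p = 0.434). The difference between MUC5B and these neighbours was not tested.

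MUC15, a membrane mucin first described on bovine milk fat globules, rose. Its values were 9.07, 9.52 and 9.68 without doxycycline and 9.22, 10.20 and 10.42 with it. The treated array was the higher in each experiment, and the groups overlap because both arrays of experiment 1 were the lowest of their groups. The rise was 1.44-fold, with a 95% interval of 1.17 to 1.77 (log2 0.53 with SE 0.13, n = 3 each, limma adjusted p = 0.0347). Experiment 1 contributed a change of 0.15, against 0.68 and 0.74 in experiments 2 and 3. Leaving out the experiment term ended this call (adjusted p = 0.418), and so did leaving out experiment 2 (0.138) or experiment 3 (0.185), within a range of 0.0105 to 0.418. The 32 probes lie on the minus strand at chr11:26537156-26550383 of build 36, inside the range of ANO3 on the opposite strand, whose probe set changed by 0.01 (SE 0.091) and did not pass.

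**Figure D2:**
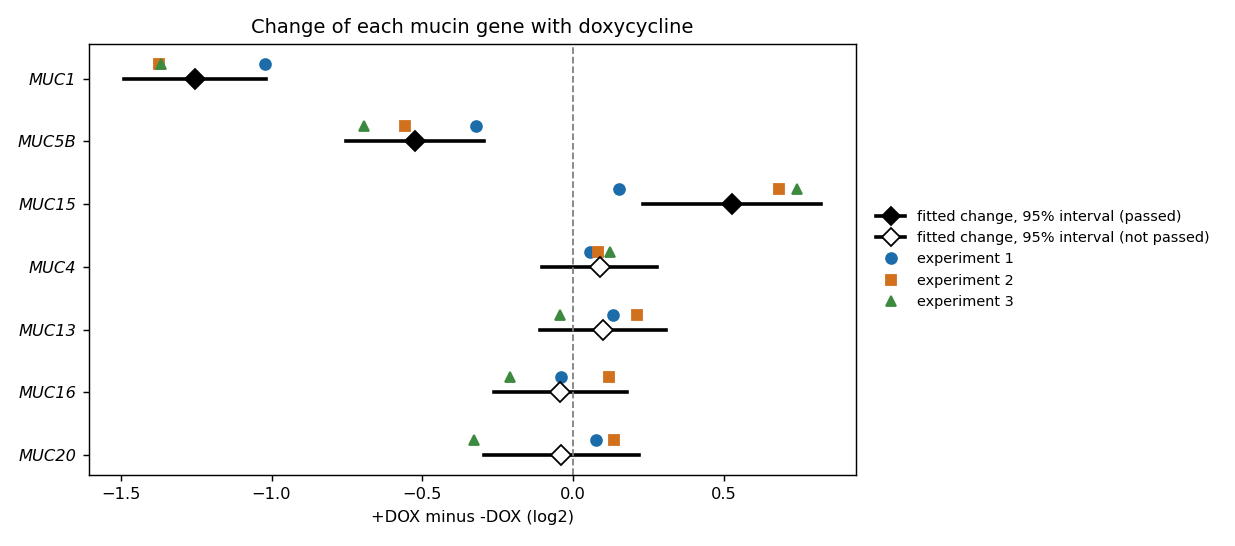
Change of each mucin gene with doxycycline, +DOX minus -DOX on the log2 scale (horizontal axis). Diamonds and bars are the limma estimate with its 95% interval, filled where the gene passed, and coloured points are the differences within each experiment. The estimates run from -1.25 for MUC1 to 0.53 for MUC15, and the intervals of MUC4, MUC13, MUC16 and MUC20 include 0.

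The remaining 4 mucins did not pass, and no end of their 95% intervals lay beyond 0.31 on the log2 scale. In both groups the means of these 4 were below the median of probe set means, 7.50. Whether such values lie above background was not tested, so the intervals need not mean stable expression. MUC4, which binds the receptor ERBB2, read 6.48, 6.53 and 6.59 without doxycycline and 6.53, 6.62 and 6.71 with it. It was higher with doxycycline in all 3 experiments, by 0.06 to 0.12, with overlapping groups. The 95% interval of its log2 change was -0.10 to 0.28 (estimate 0.09, adjusted p = 0.643). The same sign in all 3 experiments was seen for 4 of the 7 mucin genes and for 42.6% of all probe sets.

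MUC13, a membrane mucin with EGF-like domains best known from the gut, read 4.34, 4.24 and 4.46 without and 4.47, 4.45 and 4.41 with doxycycline, all under the lower quartile of probe set means. Its 35 probes lie on the minus strand at chr3:126106979-126136270 of build 36. The direction differed between experiments, and the interval was -0.11 to 0.31 (estimate 0.10, adjusted p = 0.625). MUC16, the large mucin that carries an ovarian tumour antigen and binds mesothelin, read 7.06, 6.75 and 6.94 without and 7.02, 6.87 and 6.73 with doxycycline. It was lower in 2 experiments and higher in 1, with an interval of -0.26 to 0.18 (estimate -0.04, adjusted p = 0.883). Its 74 probes lie on the minus strand at chr19:8820520-8953018 of build 36, a range of 132.5 kb where the RefSeq gene has 216.9 kb.

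MUC20, which binds the receptor MET, read 7.37, 7.13 and 7.70 without and 7.44, 7.26 and 7.37 with doxycycline. Experiment 3 went down by 0.33 and the others up by 0.08 and 0.13, and the interval was -0.30 to 0.22 (estimate -0.04, adjusted p = 0.913). The MUC20 probe set spans 119.8 kb of a duplicated stretch, at chr3:196826335-196946095 of build 36, against 12.6 kb for the RefSeq gene. RefSeq lists a pseudogene copy, MUC20P1, so the MUC20 value is uncertain. Of 2 probe sets inside this range for the pseudogene SDHAP2, on the same strand, 1 fell (log2 change -0.38, SE 0.093, adjusted p = 0.0388). The 44 probes of MUC4 lie next to it on the minus strand, at chr3:196959307-197023545.

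The genes whose log2 values followed the passing mucins most closely were ranked by Pearson r over the 6 arrays. These share the arrays, their scaling and the difference between groups, so r is a description. For MUC1 they were ATP6V1C2, a subunit of the vacuolar proton pump (r = 0.998), the proliferation marker MKI67 (r = 0.9978) and TMEM131L (r = 0.9978). All 3 fell, ATP6V1C2 by 3.86-fold, MKI67 by 1.97-fold and TMEM131L by 1.25-fold. For MUC5B they were ZNF527 (r = 0.9976), SPRY3 (r = 0.9954) and SNORD46 (r = 0.9953), of which SNORD46, a small nucleolar RNA, fell by 1.43-fold (adjusted p = 0.0189) and the others did not pass. For MUC15 they were SLC25A6 (r = 0.9969), STAMBPL1 (r = 0.9965) and SNAPC5 (r = 0.9961), none of which passed (adjusted p = 0.552, 0.111 and 0.132).

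Beyond the 7, 14 of 17 further mucin and mucin-like genes had a probe set, of which 1 fell, 1 rose and 12 did not pass, at a median of -0.01, the same as over all probe sets. For this and the following lists, 12.8% of all probe sets passed. The lists hold only probe sets with a gene symbol, and 19.0% passed when only probe sets of 1 symbol were fitted. MUCL1, the small breast epithelial mucin, measured 8.52, 9.80 and 10.24 without doxycycline and 7.50, 7.61 and 7.57 with it. Every treated array was below every untreated one, and the untreated arrays were widely spread (SD 0.89) where the treated ones were close together (SD 0.060). MUCL1 fell by 3.89-fold (log2 change -1.96, SE 0.27, adjusted p = 0.00431), a call lost with the trended and robust variance (adjusted p = 0.0898, within a range of 0.000428 to 0.0898). OVGP1, the oviduct glycoprotein, rose by 1.44-fold (log2 change 0.52, SE 0.1, adjusted p = 0.0152), but not past the threshold without experiment 2 (0.0833) or experiment 3 (0.0867).

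The 2 probe sets of MUCL3 differed in call, and those of MUC12 and of MUC21 in sign only. Differences between probe sets were not tested. MUCL3 was stood for by its brighter probe set, which changed by -0.01 (adjusted p = 0.98), while the other fell by 0.33 (adjusted p = 0.0474). The MUC12 probe sets changed by -0.15 and 0.30, and neither passed. Those of MUC21 changed by 0.06 and -0.13, and neither passed. CD164, a sialomucin, changed by -0.07 (SE 0.09, adjusted p = 0.751), with values from 12.20 to 12.40 over the 6 arrays.

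The sugars of mucins are started by the GALNT enzymes, which attach N-acetylgalactosamine to serine and threonine. All 20 GALNT genes were measured, and 2 rose, 3 fell and 15 did not pass, at a median of -0.05. GALNT10 fell by 1.39-fold (log2 change -0.48, SE 0.085, adjusted p = 0.0117), while its other, dimmer probe set changed by -0.19 (adjusted p = 0.301) and did not pass. GALNT7 fell by 1.35-fold (-0.44, SE 0.089, adjusted p = 0.0191). GALNT3 rose by 1.33-fold (0.41, SE 0.1, adjusted p = 0.0386) and GALNT14 by 1.27-fold (0.35, SE 0.087, adjusted p = 0.0399). The remaining fall was that of GALNT4 (-0.38, adjusted p = 0.0455). None of the 20 passed without experiment 2 or without experiment 3.

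Of 18 measured genes that build on the first sugar, 1 rose, 2 fell and 15 did not pass, at a median of -0.12. B3GNT3, which extends core O-glycans with N-acetylglucosamine, fell by 1.61-fold, from 9.84 ± 0.08 to 9.16 ± 0.14 (SD, n = 3 each, log2 change -0.68, limma adjusted p = 0.00625). FUT1 and FUT2 encode fucosyltransferases that make the H antigen, FUT2 mainly in secretory epithelia, and they went opposite ways. FUT2 fell by 1.58-fold (log2 change -0.66, SE 0.092, adjusted p = 0.00483). FUT1 rose by 1.46-fold (0.55, SE 0.085, adjusted p = 0.00723), although not past the threshold without experiment 3 (0.0503).

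Of 12 genes for proteins that cut mucins or bind them, 1 rose, 2 fell and 9 did not pass, at a median of -0.12. MET, the receptor to which MUC20 binds, fell 2.35-fold, from 9.69 ± 0.11 to 8.46 ± 0.04 (SD, n = 3 each, log2 change -1.23, limma adjusted p = 0.000628), while MUC20 itself did not pass. ADAM17, a protease that sheds the outer part of MUC1, rose by 1.51-fold (0.59, SE 0.09, adjusted p = 0.00652). CTNNB1, the beta-catenin that binds the MUC1 tail, fell by 1.40-fold (-0.49, SE 0.082, adjusted p = 0.00962), a call lost without experiment 3 (0.0582). ERBB2, the partner of MUC4, changed by 0.10 (SE 0.099, adjusted p = 0.689) and MSLN, which encodes the mesothelin that binds MUC16, by -0.07 (SE 0.13, adjusted p = 0.868).

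Among 14 genes of mucus-secreting cells 1 rose, 2 fell and 11 did not pass, at a median of -0.04. AGR2, a disulphide isomerase needed for mucin folding in the mouse gut, measured 7.89, 8.61 and 8.12 without doxycycline and 6.20, 6.22 and 6.54 with it. The groups do not overlap, and AGR2 fell 3.71-fold (log2 change -1.89, SE 0.15, adjusted p = 0.000835). SPDEF, a transcription factor of goblet cells, measured 9.86, 10.97 and 10.73 without and 9.14, 9.08 and 9.12 with doxycycline, so that, as for MUCL1, experiment 1 had the lowest untreated array. SPDEF fell by 2.65-fold (adjusted p = 0.00517), a call lost without experiment 3 (0.0555). The other list gene that passed, FCGBP, encodes a mucus protein and rose by 1.30-fold (0.38, SE 0.092, adjusted p = 0.0359), which did not hold without the experiment term (0.148) or without any single experiment (up to 0.181). The trefoil factor genes TFF1, TFF2 and TFF3 did not pass, with changes of -0.01, -0.05 and -0.03.

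Of 12 factors reported to act on mucin promoters, 1 rose, 1 fell and 10 did not pass, at a median of 0.13. GATA3, a luminal factor, rose 1.68-fold, from 8.66 ± 0.19 to 9.41 ± 0.14 (SD, n = 3 each, log2 change 0.75, limma adjusted p = 0.01), a call lost without experiment 3 (0.0766). STAT3 fell by 1.27-fold (-0.35, SE 0.081, adjusted p = 0.031), a call lost with equal array medians (0.0589) and without any single experiment (up to 0.15). SP1, which binds GC boxes, changed by 0.14 (SE 0.098, adjusted p = 0.495), and CDX2, an intestinal factor, by -0.02 (SE 0.086, adjusted p = 0.947).

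**Figure D3:**
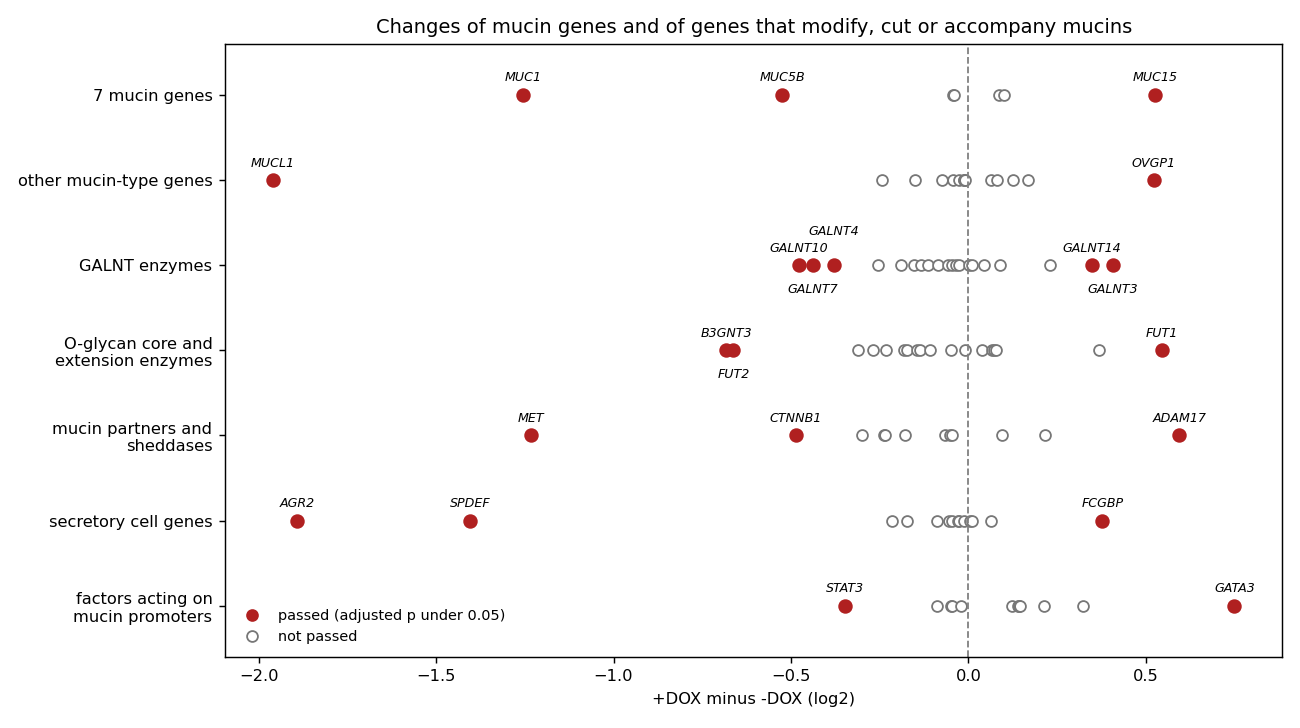
Change with doxycycline, +DOX minus -DOX on the log2 scale (horizontal axis), of the 7 mucin genes and of 6 lists of related genes (vertical axis). Each point is a gene, red where it passed at an adjusted p under 0.05 and open where it did not, with names given to those that passed. MUCL1 at -1.96 and AGR2 at -1.89 lie furthest to the left, and each list holds genes on both sides of 0.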

How the data were processed

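Per the labels' protocols, total RNA was amplified by in vitro transcription and labelled with biotin. The deposited values are log2 signals made by the authors with RMA, for which the submitters' processing notes name R 2.11.1. Of 33297 probe sets, 28026 remained once controls and empty probe sets were left out. Array medians lay between 7.45 and 7.56. The deposited workbook gave symbols, build 36 positions and probe numbers, and symbols were updated through RefSeq (GRCh38.p14).

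Treated arrays were compared with untreated ones in limma 3.58.1 (R 4.3.3), with the experiment as a term and Benjamini-Hochberg adjustment over all 28026 probe sets. Pairing follows the paired test of the design text, and arrays were paired by the replicate number in the sample titles. Deviations of paired arrays from their group means correlated at 0.482, 0.165 and 0.0993. The procedure was tested on simulated data. Figures were drawn with matplotlib 3.10.9.

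Where a gene had several probe sets, the one with the highest mean stood for it. Named were all 7 mucin genes, up to 4 passing genes of each of 6 lists by smallest p, and the 3 genes most like each passing mucin. MUC2, MUC6, MUC12, MUC21, MUCL3, CD164, GALNT4, ERBB2, MSLN, the trefoil genes, SP1, CDX2 and the neighbouring genes were added after their values were seen. The members and lists were chosen with earlier results of these data known. No matched sequence was at hand for MUC5B, MUC15 and MUC20. The level of the hairpin's target is not reported here.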

Additional observations from a re-analysis of the deposited data

How the results depend on the processing

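The results were recomputed under 10 other settings. Of the 7 mucin genes, 3 passed, and 3 also passed with equal array medians, with quantile normalization, with the trended and robust variance, with only probe sets of 1 gene symbol, and without dim probe sets (3 of 3 left). With no replicate block, that is without the experiment term that pairs the arrays, 1 passed, MUC1. The block changed no other count by more than 1.5 times, and of the genes named for passing in the 6 lists, at most 4 a list, FCGBP lost its call without it and the others did not. With 1 experiment left out, 1 to 3 of the mucin genes passed, 1355 to 2853 of all probe sets against 3580, 1 or 2 of the further mucin genes against 2, 0 to 4 GALNT genes against 5, 1 or 2 secretory genes against 3, and 0 or 1 promoter factors against 2. For core enzymes and partners these counts were 3 and 2 to 3, against 3 each. The methods' t-test passed 0 probe sets after adjustment, hence 0 in each list, and 4449 at an unadjusted p under 0.05, among them 3 mucin genes (MUC1, MUC5B and MUC4). Further mucin genes passed 1 with the trended and robust variance, and promoter factors 1 with equal array medians. Without dim probe sets 1 further mucin gene passed, of 6 left from 14. OVGP1 and AGR2 were among the dim probe sets, so they were not tested in that setting. MUC16 and MUC20, which did not pass, ranged from -0.1244 to 0.0398 and from -0.1263 to 0.1045 with 1 experiment left out, upward without experiment 3. No sign turned among those list genes. Other genes named, such as KRT8, GALNT4 and those most like a mucin, were not recomputed one by one. The causes were not tested. No mucin gene of the 7 had a second probe set to put in its place.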
